A study of Mus musculus with 4 samples.

Results

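The genes of MHC class I and class II antigen presentation were examined for chromatin accessibility in single LT-HSCs of old mice, the long-term stem cells of the blood. The 10 genes were listed by name and not by a cut on a measured value, though earlier results of these data were known. The genes were H2-Aa, H2-Ab1, H2-Eb1, H2-DMa, Cd74 and Ciita for class II, and H2-K1, H2-D1, B2m and Nlrc5 for class I. They are 10 of 21951 protein-coding genes of the GRCm38 annotation. A locus was taken as the gene body and the 5000 bp upstream, and the 10 loci held 46 of the 93513 peaks of the table, 26 in class II and 20 in class I.

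Single-cell ATAC-Seq, in which the transposase Tn5 cuts accessible DNA and the cuts are counted, had been performed on LT-HSCs (LSK CD34neg CD135neg) of C57BL/6JRj mice. The table analysed here belongs to 2 samples of mice aged 22 to 28 months, sorted with an antibody against CLCA3A1, a surface protein, into CLCA3A1high and CLCA3A1low LT-HSCs. Each was 1 sample of 10000 sorted cells, 2500 from each of 4 mice. LT-HSCs of young mice (3 to 4 months) and of old mice (22 to 28 months) make up the other 2 samples of the series. These were not analysed here: no label ties them to a table, and the peaks of the second table carry no positions.

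The cell barcodes of the table end in 1 or 2, here called set 1 and set 2, and no label pairs an ending with a sample. The table is therefore 1 pooled sample of CLCA3A1high and CLCA3A1low cells. Values are given for each set without a direction between the sorted groups, no p-value is given, and cells are not replicates. Each sorted group was 1 library, so group and library cannot be told apart.

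Set 1 had 818 cells with 13050952 counts and set 2 had 636 cells with 9820094 counts. No cell barcode was shared by the sets. Values are CPM, counts scaled to a set total of 1000000, with exact 95% Poisson intervals in parentheses. Of the nonzero entries, 88.7% were even, since a fragment brings 2 insertions. Counts are thus not independent, and all intervals, which reflect counting error alone, are too narrow. A cell with at least 1 count in a locus is called open there. Shares of open cells were taken after every cell had been thinned to 4899 counts, which kept 749 cells of set 1 and 560 of set 2, and they carry exact 95% Clopper-Pearson intervals.

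MHC class I molecules consist of a heavy chain, such as H2-K1 or H2-D1, and beta-2 microglobulin (B2m), and they show peptides made inside the cell to CD8 T cells on nearly all nucleated cells. Class II molecules consist of an alpha and a beta chain, are best known from B cells, dendritic cells and macrophages, and show peptides from ingested protein to CD4 T cells. The promoters of both classes share a module, the X and Y boxes, which is bound by RFX, CREB and NF-Y, and the coactivators Nlrc5 for class I and Ciita for class II act on it without binding DNA themselves.

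Pairs of words of this module could be read in the start windows of 5 of the 10 genes. Only 6 genes had a window, and the stretches that hold a pair are shown. Windows reaching from 250 bases before to 50 bases after the start were taken from RefSeq (GRCm38.p6), which matched B2m, H2-K1, H2-D1, H2-Aa, H2-Eb1 and H2-DMa. The capitals mark TGACG, part of the CREB site, CTNGCAAC, a form of the X box of class II genes, and ATTGG, the core of the Y box.
B2m: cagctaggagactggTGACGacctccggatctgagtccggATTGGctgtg
H2-K1: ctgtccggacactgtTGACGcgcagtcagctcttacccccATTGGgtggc
H2-D1: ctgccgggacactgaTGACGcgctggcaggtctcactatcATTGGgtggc
H2-Aa: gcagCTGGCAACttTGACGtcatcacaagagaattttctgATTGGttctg
H2-Eb1: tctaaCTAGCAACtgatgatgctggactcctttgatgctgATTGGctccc
The stretches lie at chr2:122147594-122147643 (plus strand), chr17:34000354-34000403 (minus strand), chr17:35262978-35263027 (plus strand), chr17:34287862-34287911 (minus strand) and chr17:34305768-34305817 (plus strand). Each is wholly inside the start peak of its gene.

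Of the marked words, only ATTGG was in all 5 stretches. Aligned on it, a class I and a class II stretch were identical at 14 to 18 of 50 bases. That count includes the bases of ATTGG, which match by the alignment, and unrelated stretches were not compared, so no likeness is read from it. Among the class II stretches TGACG was found in H2-Aa alone, where its spacing was nearly that of the class I genes. From the first base of TGACG to the first base of ATTGG there were 25 bases in B2m, H2-K1 and H2-D1 and 26 bases in H2-Aa. From CTNGCAAC to ATTGG there were 36 bases in H2-Aa and 35 in H2-Eb1. The window of H2-D1 also held CTNGCAAC, on the opposite strand at -212 bases from the start and outside the stretch shown. Of all 32851 windows, 20.8% held TGACG on either strand, 3.42% held CTNGCAAC and 37.4% held ATTGG. The ordered pairs, with ATTGG 20 to 40 bases after the other word on the same strand, were found in 0.685% of windows for TGACG and 0.107% for CTNGCAAC, or 0.788% for either. The words TGACG and CTNGCAAC were chosen after these windows had been read, so the matches in the 5 genes are a description. The X box word CCNAGNNAC, searched first on both strands, occurred in 17.3% of all windows and in H2-Aa alone among the matched genes, upstream of the stretch shown.

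The other words searched on both strands separated the genes further. The NF-kB word GGGNNTTCC, present in 5.82% of all windows, was found in H2-K1, H2-D1 and H2-Aa. The interferon response word GAAANNGAA, present in 8.56% of windows, was found in B2m. They are shown with these words in capitals, since NF-kB and interferon signals are classical inducers of class I genes.
H2-K1: ccagggctGGGGATTCCccatctccacagt
H2-D1: ccagggctGGGGATTCCccatctcctcagt
H2-Aa: caggttcaGGGAGTTCCcctagcctcttcc
B2m: aagaacatGAAACTGAAaatgggaaagtcc
They lie at chr17:34000437-34000466 (minus strand), chr17:35262915-35262944 (plus strand), chr17:34287933-34287962 (minus strand) and chr2:122147540-122147569 (plus strand). The H2-K1 and H2-D1 stretches were identical at 29 of 30 bases around the NF-kB word and at 40 of 50 bases around the X and Y boxes. Short reads from such paralogous stretches can match both genes, and how reads with several matches were placed is not given in the sources used here, so the split between H2-K1 and H2-D1 is uncertain. Neither of the 2 windows of H2-DMa held a pair, although ATTGG alone was found, at -198 bases from the start. The PU.1 word GAGGAAGT, present in 3.20% of all windows, was in no window of the 6 genes, which says only that these letters are not in these windows.

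The 2 chains of the class II molecule that C57BL/6 cells display are encoded by H2-Aa (ENSMUSG00000036594.15, chr17:34282744-34287823, minus strand) and H2-Ab1 (ENSMUSG00000073421.6, chr17:34257689-34269419, plus strand). H2-Aa had 45.4 CPM (41.9 to 49.2) in set 1 and 46.7 (42.6 to 51.2) in set 2, and 16.8% (14.2 to 19.7%) and 13.9% (11.2 to 17.1%) of cells were open there. The sets could not be told apart at this locus on either measure. H2-Ab1 had 72.6 CPM (68.1 to 77.4) in set 1 and 94.5 (88.5 to 101) in the other set. Its log2 ratio, always given as set 1 over set 2, was -0.38 (-0.51 to -0.25). Of the 10 loci it had the ratio farthest from 0, although the shares of open cells, 24.6% (21.5 to 27.8%) and 29.5% (25.7 to 33.4%), had overlapping intervals. At 2 times that depth the shares were 36.3% (32.3 to 40.5%) and 46.0% (41.1 to 50.9%), with separate intervals. Without thinning they were 38.0% and 42.1%, again overlapping, so the separation depended on the depth chosen.

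The peaks of H2-Ab1 carried this ratio unequally. The peak over the protein-coding starts, chr17:34262736-34265576, had 39.8 and 45.1 CPM in sets 1 and 2, a log2 ratio of -0.18 (-0.37 to 0.0043). The intronic peak upstream of these starts, chr17:34260513-34262039, had 10.4 and 16.4 CPM, a log2 ratio of -0.65 (-0.99 to -0.32). The peak at the start of a noncoding transcript of the gene, chr17:34257288-34258287, had 22.2 and 31.9 CPM, a log2 ratio of -0.52 (-0.76 to -0.29). The set 2 excess was thus larger in the peaks away from the coding starts, with a log2 ratio of -0.59 (-0.78 to -0.40) over the 3 of them.

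H2-Eb1 (ENSMUSG00000060586.11, chr17:34305867-34316674, plus strand) encodes the other beta chain, for which C57BL/6 mice lack the partner alpha chain. It had 41.7 CPM (38.3 to 45.3) in set 1 and 46.3 (42.2 to 50.8) in set 2, and 14.6% (12.1 to 17.3%) and 19.1% (15.9 to 22.6%) of cells were open. Its start peak had 29.1 and 34.2 CPM. The intervals of the sets overlapped for the locus.

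H2-DMa (ENSMUSG00000037649.10, chr17:34119541-34139101, plus strand), a chain of the molecule that exchanges peptides on class II, had the highest level and the highest share of open cells of the 10 loci. It had 216 CPM (208 to 224) in set 1 and 234 (225 to 244) in set 2, with 51.9% (48.3 to 55.6%) and 53.9% (49.7 to 58.1%) of cells open. The log2 ratio, -0.12 (-0.20 to -0.04), was -0.03 without the cells over 3 times the median depth and also with all cells weighted alike. Most of these counts do not belong to H2-DMa alone. Its peak of 9005 bp, chr17:34116288-34125292, held 149 and 162 CPM and also covers starts of Brd2, which encodes a bromodomain protein used in most cells. The peak at the downstream starts of H2-DMa, chr17:34135113-34137019, overlapped no other protein-coding gene and held 54.3 and 48.8 CPM, a log2 ratio of 0.16 (-0.01 to 0.33). The 3 peaks away from its starts went the other way, with 11.9 CPM in set 1 and 23.5 in set 2, a log2 ratio of -0.98 (-1.28 to -0.68).

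Each of these 3 H2-DMa peaks was more than 1.5-fold higher in set 2. The intronic peaks chr17:34127121-34127953 and chr17:34129108-34129823 had log2 ratios of -0.88 (-1.28 to -0.48) and -0.90 (-1.60 to -0.22), from 94 and 130 counts and from 32 and 45 counts in sets 1 and 2. The peak upstream of the gene, chr17:34114379-34115583, had 30 and 56 counts and lies in the body of Brd2. All were low, with at most 5.71% of the cells of a set open.

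Cd74 (ENSMUSG00000024610.15, chr18:60803848-60812652, plus strand) encodes the invariant chain, which fills the peptide groove of new class II molecules. It had 74.1 CPM (69.5 to 78.9) in set 1 and 86.9 (81.1 to 92.9) in set 2, with a log2 ratio of -0.23 (-0.36 to -0.09). The shares of open cells, 23.2% (20.3 to 26.4%) and 25.5% (22.0 to 29.4%), overlapped. A single peak of 5623 bp over the start held 72.0 and 85.3 CPM, and counting each peak once per cell brought the log2 ratio of the locus to -0.05.

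Ciita (ENSMUSG00000022504.10, chr16:10480059-10528418, plus strand), the coactivator of class II genes, has alternative starts known for use in different cell types. It had 38.6 CPM (35.3 to 42.1) in set 1 and 47.5 (43.2 to 52.0) in set 2, with a log2 ratio of -0.30 (-0.48 to -0.11), and 14.3% (11.9 to 17.0%) and 14.8% (12.0 to 18.0%) of cells were open. At 2 times that depth the shares were 22.2% (18.8 to 25.9%) and 25.4% (21.3 to 29.8%), and without thinning 24.7% and 27.5%. The share was higher in set 2 at all 3 depths, with overlapping intervals, but the depths draw on the same cells. Of its 6 annotated protein-coding starts, the 3 farthest downstream lie inside 1 peak, chr16:10489152-10490339, which held 10.3 and 13.7 CPM from 135 and 134 counts. The start of transcript Ciita-201 lies 873 bp upstream of that peak. The 2 most upstream starts, at 10480059 and 10480164, have no peak nearer than 3814 bp.

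Most counts of the Ciita locus lay elsewhere. The peaks away from the starts held 28.3 CPM in set 1 and 33.8 in set 2. The 2 largest of them, chr16:10520980-10521871 with 11.6 and 10.3 CPM and chr16:10524541-10525626 with 9.12 and 11.9 CPM, lie in the downstream part of the gene and inside the body of Dexi, an overlapping gene, to which their counts could equally belong. Past 1.5-fold were the exonic peak chr16:10501860-10502208, higher in set 1 from 23 and 9 counts, and the intronic peak chr16:10522782-10523284, higher in set 2 from 39 and 45 counts, and the intervals of both included equality.

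H2-K1 (ENSMUSG00000061232.16, chr17:33996017-34000347, minus strand) and H2-D1 (ENSMUSG00000073411.11, chr17:35262730-35267499, plus strand) encode the classical class I heavy chains. H2-K1 had 96.1 CPM (90.8 to 102) in set 1 and 86.6 (80.8 to 92.6) in set 2, with a log2 ratio of 0.15 (0.02 to 0.28), with 31.8% (28.4 to 35.2%) and 29.1% (25.4 to 33.1%) of cells open. H2-D1 had 114 CPM (109 to 120) in set 1 and 109.6 (103 to 116) in set 2, with 33.1% (29.7 to 36.6%) and 30.0% (26.2 to 34.0%) of cells open. Both loci were a little higher in set 1, and only the CPM ratio of H2-K1 had an interval above 0.

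B2m (ENSMUSG00000060802.8, chr2:122147686-122153083, plus strand), the light chain of every class I molecule, had 71.4 CPM (66.9 to 76.1) in set 1 and 77.2 (71.8 to 82.9) in set 2, which overlapped, and so did the shares of open cells, 24.7% (21.6 to 27.9%) and 25.2% (21.6 to 29.0%). Its start peak, chr2:122146632-122150735, held 66.6 and 74.3 CPM, a log2 ratio of -0.16 (-0.30 to -0.01). A small peak upstream, chr2:122145702-122146123, went the other way with 63 and 28 counts, a log2 ratio of 0.76 (0.10 to 1.46). Both peaks overlap the body of Patl2, so their counts do not belong to B2m alone.

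Nlrc5 (ENSMUSG00000074151.13, chr8:94434356-94527272, plus strand), the coactivator of class I genes, had 76.9 CPM (72.2 to 81.8) in set 1 and 67.7 (62.7 to 73.1) in set 2, with a log2 ratio of 0.18 (0.04 to 0.33), with 25.8% (22.7 to 29.1%) and 22.7% (19.3 to 26.4%) of cells open. Its start peak, chr8:94433650-94435717, had nearly the same level in both sets, 26.9 and 28.8 CPM. The set 1 excess came from the rest of the gene, whose 11 peaks held 50.03 and 38.8 CPM, a log2 ratio of 0.37 (0.18 to 0.55). The intronic peak chr8:94457819-94458861 was past 1.5-fold in set 1, with 86 and 31 counts and a log2 ratio of 1.06 (0.45 to 1.70). The exonic peak chr8:94516111-94517387 had 69 and 33 counts, a log2 ratio of 0.65 (0.04 to 1.30), and the exonic peak chr8:94490092-94490894 was past the fold in set 2 with 8 and 16 counts, a log2 ratio of -1.41 (-2.84 to -0.10). The starts of Nlrc5-204 and Nlrc5-201 had no peak within 6744 bp.

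**Figure D1:**
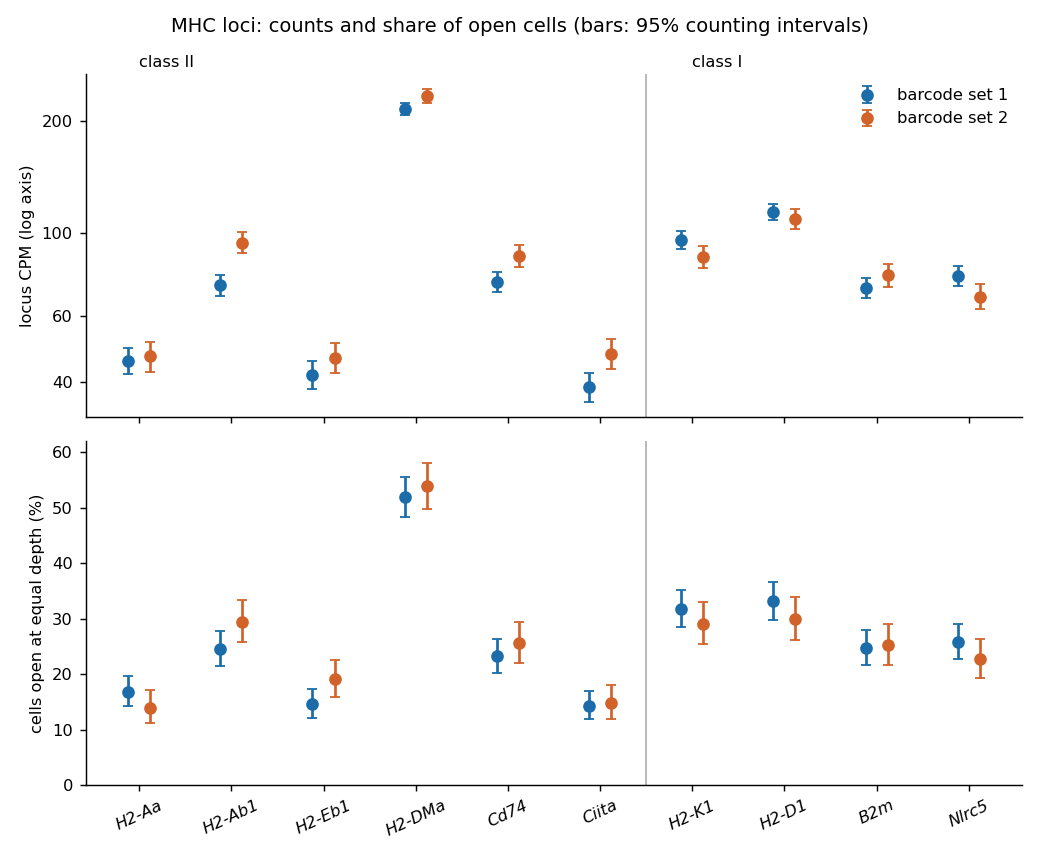
Locus CPM (upper panel, log axis) and percent of cells open at equal depth (lower panel) of the 10 MHC genes in barcode set 1 (blue) and set 2 (orange). Bars are exact 95% counting intervals. H2-DMa stands highest on both measures, and H2-Ab1, H2-DMa, Cd74 and Ciita are the loci where the CPM of set 2 is above that of set 1 with separate intervals.

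No locus reached a 1.5-fold ratio in either direction, 0 of 10, where 5.56% of 16988 protein-coding loci with at least 20 counts were at least 1.5-fold higher in set 1 and 4.33% at least 1.5-fold higher in set 2. The middle 50% of all loci had log2 ratios from -0.16 to 0.17 around a median of 0.0038. All 6 class II loci were on the set 2 side, with a median of -0.19, whereas 3 of 4 class I loci were on the set 1 side, with a median of 0.11. H2-Ab1, Ciita and Cd74 lay below the middle 50% of all loci, and Nlrc5 lay just above it. Among all loci, 50.7% were above 0. The classes were listed with earlier results of these data known, and loci on chromosome 17 are neighbours, so these counts describe the 2 sets and test nothing.

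Over whole classes, the ratio was again small. The class II peaks held 488 CPM (476 to 500.1) in set 1 and 556 (541 to 571) in set 2, with a log2 ratio of -0.19 (-0.24 to -0.14). The class I peaks held 359 CPM (349 to 369) in set 1 and 341 (330 to 353) in set 2, with a log2 ratio of 0.07 (0.01 to 0.14). The class II ratio differed between start peaks and the rest. In start peaks it was -0.12 (-0.18 to -0.06), and in the other peaks, with 101 CPM in set 1 and 135 in set 2, it was -0.42 (-0.53 to -0.31), or -0.32 without H2-DMa. By gene, the ratio was lower in the other peaks with separate intervals in H2-Ab1 and H2-DMa alone. H2-Aa also had the lower ratio in the other peaks. H2-Eb1 (-0.23 in start peaks and 0.05 in the others), Cd74 (-0.25 and 0.49) and Ciita (-0.40 and -0.26) had it in the start peaks. In H2-Aa, H2-Eb1, Cd74 and Ciita the intervals of start and other peaks overlapped, so neither direction can be read from these genes. Peaks away from starts also spread more over the whole table, the middle 50% of single peaks running from -0.51 to 0.53 against -0.17 to 0.21 at starts. The corresponding class I values were 0.03 (-0.05 to 0.10) in start peaks and 0.20 (0.07 to 0.33) in other peaks. Without H2-DMa, whose largest peak is shared with Brd2, the class II ratio was -0.24 (-0.31 to -0.17).

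**Figure D2:**
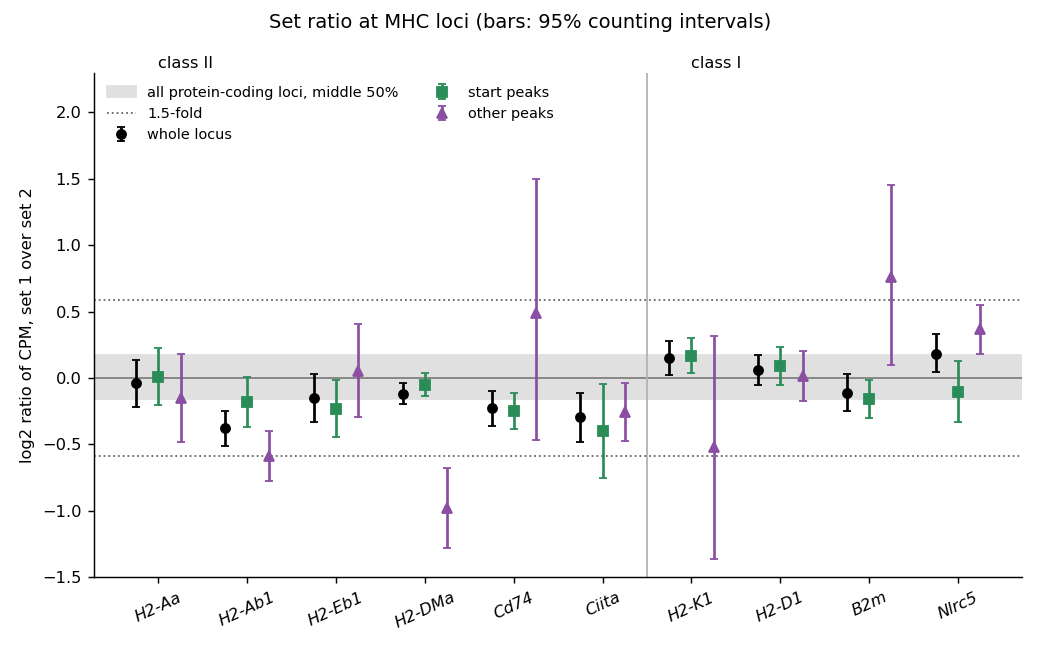
Log2 ratio of CPM in set 1 over set 2 for each gene, over the whole locus (black circles), its start peaks (green squares) and its other peaks (purple triangles), with exact 95% counting intervals. The grey band is the middle 50% of all protein-coding loci and the dotted lines mark 1.5-fold. The whole loci stay within the dotted lines, while the other peaks of H2-DMa, at -0.98, and of B2m, at 0.76, lie beyond them.

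Of the 46 peaks, 35 had at least 20 counts, and 3 peaks of Nlrc5 had none. Of these 35 peaks, 4 (11.4%) were at least 1.5-fold higher in set 1 and 6 (17.1%) in set 2, against 20.4% and 19.5% of the 79625 peaks with at least 20 counts. Neither share was above that of all peaks. By class, 3 of 14 class I peaks were past the fold in set 1 and 1 in set 2, and 1 of 21 class II peaks in set 1 and 5 in set 2. The median log2 ratio was 0.15 over the class I peaks and -0.25 over the class II peaks, against 0.024 over all peaks.

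**Figure D3:**
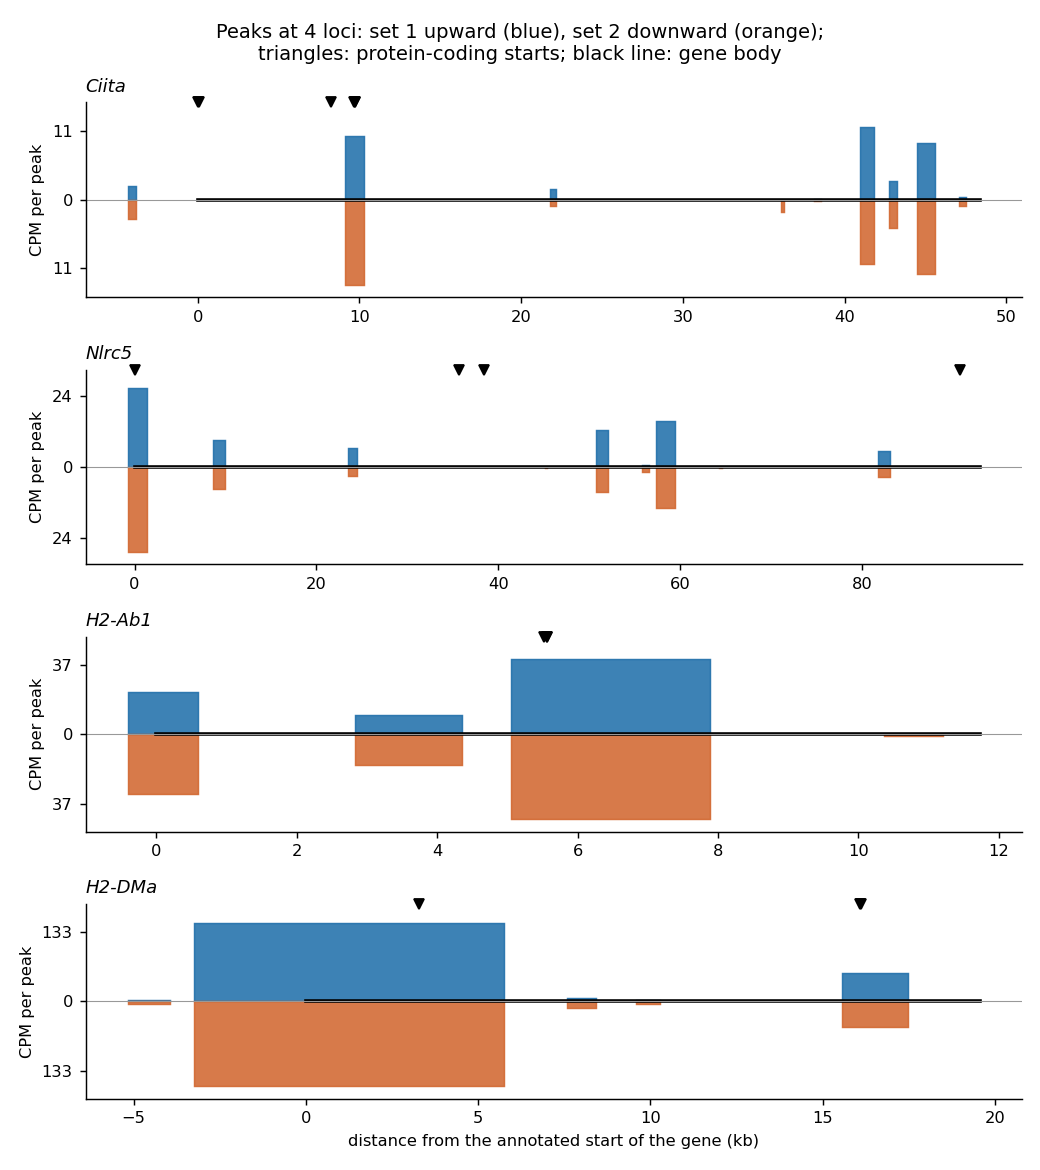
Peaks of Ciita, Nlrc5, H2-Ab1 and H2-DMa by distance from the annotated start of the gene in kb, with the CPM of set 1 drawn upward in blue and that of set 2 downward in orange. Bar width is the width of the peak, triangles mark protein-coding starts and the black line the gene body. The upstream starts of Ciita and the internal starts of Nlrc5 have no tall peak, and the wide peak of H2-DMa spans 9005 bp.

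The level of each gene was then compared per kb of peak over all cells, since loci differ in the width they cover. H2-Aa had 19.3 CPM per kb (18.1 to 20.5), followed by H2-DMa with 16.4 and B2m with 16.3, then H2-K1 with 15.2, H2-D1 with 13.8, H2-Ab1 with 13.2, Cd74 with 12.97 and H2-Eb1 with 12.6. The coactivators came last, Ciita with 7.64 (7.17 to 8.14) and Nlrc5 with 6.81 (6.49 to 7.15). Neighbours in this order with overlapping intervals were H2-DMa and B2m, B2m and H2-K1, H2-D1 and H2-Ab1, H2-Ab1 and Cd74, and Cd74 and H2-Eb1. The 2 classes therefore interleaved, with class II peaks at 13.8 CPM per kb and class I peaks at 11.9. This gap depended on the genes included. Without the coactivators, class II had 14.90 CPM per kb and class I had 14.85. With Ciita but without H2-DMa, class II had 12.4. The median over all 17183 loci with a peak was 13.4 CPM per kb, and the 8 genes other than the coactivators lay between the 45.6th and 72.9th percentile of that distribution.

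At gene starts, counted in all 1454 cells without thinning, the genes spread over most of the range of the genome. Start peaks were open in 62.9% of cells for H2-DMa (99.4th percentile of 15398 genes with a start peak, shared with Brd2), 43.8% for H2-K1 (92.5th), 36.9% for Cd74 (85.4th), and 35.4% for both H2-D1 and B2m (83.4th). H2-Ab1, at 23.8% (60.4th), H2-Eb1, at 19.9% (49.6th), and H2-Aa, at 19.2% (47.7th), were close to the median gene, which was open in 20.0% of cells. Nlrc5, at 18.2% (44.9th), and Ciita, at 8.39% (18.9th), were below it. The start of Ciita was thus the least open of the 10, and in thinned cells it was open in 4.54% of set 1 and 3.75% of set 2. These shares are not scaled for the width of the start peaks, which ran from 1.19 kb at Ciita to 10.9 kb at H2-DMa. Per kb of start peak the order differed. H2-Aa had 17.7 CPM and H2-Eb1 15.1, above Cd74 with 13.8 and H2-D1 with 12.7. H2-DMa, with 18.9, stayed highest and Ciita, with 9.90, lowest.

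**Figure D4:**
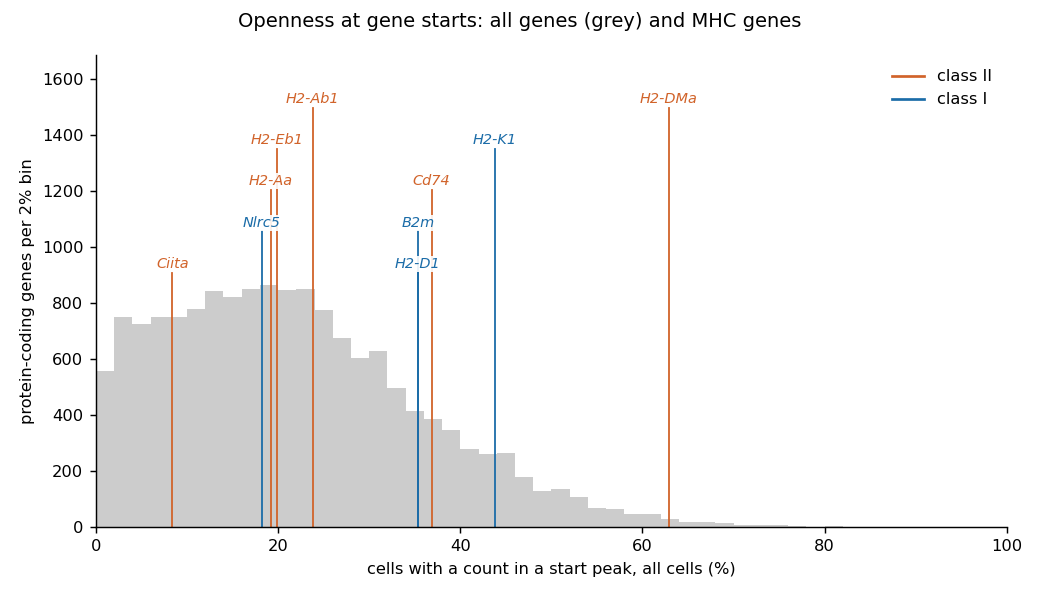
Number of protein-coding genes (grey, 2% bins) by the percent of all 1454 cells with a count in a start peak, with the class II genes in orange and the class I genes in blue. The class II chain genes lie near the median of 20.0%, Ciita lies at 8.39%, and B2m and H2-D1 coincide at 35.4%. The shares are not scaled for peak width.

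Counts per cell were low and mostly came as single fragments. Of the cells open at a locus before thinning, between 39.1% (H2-DMa) and 70.5% (H2-Eb1) had exactly 2 counts, and the median open cell had 2 counts at every locus except H2-DMa, where it had 4. In thinned cells, 79.7% (76.6 to 82.5%) of set 1 and 83.4% (80.0 to 86.4%) of set 2 were open at 1 or more of the 6 class II loci. For the 4 class I loci these shares were 75.3% (72.0 to 78.4%) and 72.9% (69.0 to 76.5%). Without H2-DMa, whose largest peak is shared with Brd2, the class II shares were 61.5% (58.0 to 65.0%) and 67.0% (62.9 to 70.9%). Such shares depend on the number and width of the loci taken, so they do not rank the classes. The median cell of each set was open at 1 class II and 1 class I locus. Over both sets, 50 of 1309 cells were open at 4 class II loci and 7 at 5.

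Cells open at Ciita were compared with the other cells at the same depth. Of 190 such cells, 27.4% were open at H2-Ab1, 17.4% at H2-Aa and 23.2% at Cd74, against 26.5%, 15.3% and 24.4% of the 1119 other cells. H2-Eb1 was open in 22.6% (16.9 to 29.3%) against 15.5% (13.4 to 17.7%), higher by 5.92 percentage points in set 1 and 8.69 in set 2. Nlrc5 was open in 30.5% (24.1 to 37.6%) against 23.4% (21.0 to 26.0%), higher by 4.83 and 10.2 points. H2-Eb1 was thus the class II gene with the widest gap. The difference at H2-DMa, -3.26 points over all cells, went opposite ways in the sets, with 1.56 and -9.56 points. B2m, set beside them as a class I gene, was open in 23.7% against 25.1%. Of cells open at Nlrc5 (320 cells), 25.3% were open at B2m against 24.8% of the rest, 28.1% at H2-K1 against 31.4%, and 33.8% at H2-D1 against 31.1%. Over all cells, the widest gaps of this split were at class II genes and went both ways. They were 57.2% against 51.4% at H2-DMa, 18.1% against 13.3% at Ciita, and 23.4% against 27.7% at H2-Ab1. The intervals of each pair overlapped. In sets 1 and 2 these gaps were 9.61 and 0.520 points, 3.09 and 7.31, and -5.87 and -1.45. Those of H2-D1, 6.35 and -3.16, and of B2m, 3.72 and -4.05, went opposite ways in the sets. At H2-K1 they were -4.42 and -2.00. The order of the genes thus differed between the sets. No test was made on these differences, since cells of 1 library are not replicates.

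Of the wider pathway, 41 of 42 listed genes were found in the annotation. Among the other class II genes, 2 of 7 were at least 1.5-fold higher in set 2 and none in set 1, with a median log2 ratio of -0.36, where 4.33% of all loci were past the fold in set 2 and 5.56% in set 1. They were H2-DMb2, a beta chain of the peptide exchanger, with 15.6 CPM in set 1 and 34.6 in set 2, and Ctss, which encodes the protease cathepsin S that trims the invariant chain, with 4.90 and 11.6. By gene, 2 of this list were above 0 and 5 below. H2-DMb1 was on the set 1 side, with 20.9 CPM in set 1 and 17.0 in set 2, a log2 ratio of 0.30 (0.02 to 0.59). The most open of this list was Lgmn, a lysosomal protease gene, with 16.6% of thinned cells, and the least open was Ctss with 3.36%. Some neighbouring genes of the MHC share peaks, so these genes are not independent of each other.

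Genes of class I processing and loading were more open than the other class II genes. Of the 10 genes 0 were past 1.5-fold in either direction, and the median log2 ratio was -0.03. In sum the list was higher in set 2, with 674 CPM in set 1 and 727 in set 2, a log2 ratio of -0.11. By gene, 4 were above 0 and 6 below, down to -0.40 (-0.58 to -0.21) at Psmb10. Tapbp, the tapasin gene, was open in 46.1% of thinned cells and had 165 and 179 CPM, and Psmb8, an immunoproteasome subunit gene, was open in 12.5%. The peptide transporter genes differed from each other, with 103 and 101 CPM at Tap1 and 91.2 and 115 CPM at Tap2. Of the 8 nonclassical class I genes 0 were past the fold, with a median of -0.0057 and open shares from 7.26% (H2-T23) to 22.8% (H2-M3). Their sums were 304 CPM in set 1 and 324 in set 2, with 4 genes above 0 and 4 below.

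Of the factors that bind the X and Y boxes, 0 of 7 were past the fold, with a median of -0.0042 and sums of 656 and 660 CPM. Their open shares ran from Rfxap in 11.2% of thinned cells to Creb1 in 40.3%. Of the 9 interferon response genes 1 was past the fold, Ifngr2, a chain of the interferon gamma receptor, with 31.4 CPM in set 1 and 57.8 in set 2, against the same 4.33% of all loci. The median of that list was -0.11, and the open shares ran from 9.63% (Irf8) to 54.2% (Jak1). Of all the pathway lists the other class II genes had the median farthest from 0.

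Markers of cell types were read in the same way, since class II genes are used by B cells, dendritic cells and macrophages. Of all loci, 5.56% were past 1.5-fold in set 1 and 4.33% in set 2. Of the 6 LT-HSC marker genes tested all were on the set 1 side, 2 of them past the fold (Procr and Slamf1), and the list had a median log2 ratio of 0.29 and summed to 804 CPM in set 1 and 662 in set 2. The erythroid and megakaryocyte list had 4 of 5 genes on the same side, 0 past the fold, a median of 0.29 and sums of 261 and 221 CPM. The 5 reference genes had a median of -0.02. Mecom, a transcription factor gene of HSCs, was open in 73.2% of thinned cells, and Ly6a, the gene of the sort marker Sca-1, had no peak.

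The dendritic cell and macrophage list was on the set 2 side in 6 of 6 tested genes, with a median of -0.32, and summed to 176 and 216 CPM. Its 2 genes past the fold were Itgax, with 1.38 and 9.78 CPM, and Adgre1, with 0.766 and 3.67 CPM. Of 4 tested B cell genes 3 were on the set 2 side, with a list median of -0.18, and 1 was past the fold there, Blnk. That list summed to 185 and 183 CPM. Its members differed widely before thinning. Ms4a1 had no peak and Cd79a was open in 0.344% of all cells, while Ebf1 was open in 40.4%, Pax5 in 34.9% and Cd79b in 9.97%. Of 5 tested neutrophil and monocyte genes 4 were on the set 2 side, with a list median of -0.12. Past the fold in set 2 was 1 of them, Mpo, with 3.29 and 5.40 CPM, and the list summed to 72.6 and 74.5 CPM. S100a9 was open in 0.138% of all cells, S100a8 in 2.27%, Lyz2 in 9.35%, Csf3r in 9.42% and Elane in 21.5%. Of 6 T and NK cell genes 4 had no peak, Cd4 was open in 0.481% of cells and Klrb1c in 10.04%. The part of other cell types in the class II values was not tested.

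**Figure D5:**
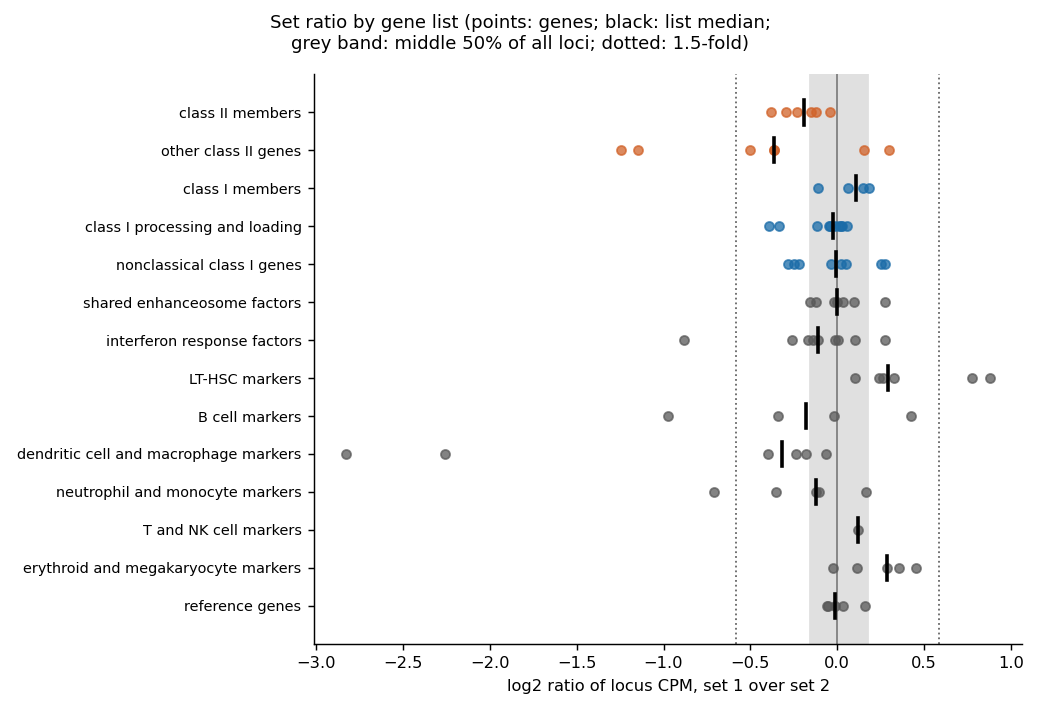
Log2 ratio of locus CPM in set 1 over set 2 for each tested gene (points) by gene list, with the list median as a black bar, the middle 50% of all loci as a grey band and 1.5-fold as dotted lines. The class II genes and the dendritic cell and macrophage markers lie mostly left of 0. Most B cell markers, neutrophil and monocyte markers and interferon response factors do so too. The LT-HSC markers and most erythroid and megakaryocyte markers lie right of it.

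The cells with a count at Itgax or Adgre1 were set apart, a step chosen after these values had been seen. Both genes were past 1.5-fold in set 2, so a larger share of such cells in that set follows from the choice. There were 18 such cells in set 1 (2.20%, 1.31 to 3.46%) and 65 in set 2 (10.2%, 7.98 to 12.8%), and they were deeper than the rest, with medians of 18208.5 and 20550 counts against 13076 and 12159. Their class II level was 560 CPM (488 to 639) in set 1 and 578 (540 to 617) in set 2. Without them, class II had 486 CPM (474 to 498) in set 1 and 552 (536 to 568) in set 2, with a log2 ratio of -0.18 (-0.24 to -0.13). A count at either locus does not identify a cell type, and the type of the cells set apart was not tested. A dendritic cell or macrophage without a count at either sparse locus would stay among the rest, so this value says nothing of such cells. For class I the log2 ratio without the cells set apart was 0.04 (-0.03 to 0.10). The ratio of H2-K1 went from 0.15 to 0.04 (-0.09 to 0.17), an interval that includes 0, and that of H2-D1 from 0.06 to 0.0028. No gene changed sign.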

How the data were processed

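Per the methods of the study and the submitters' processing notes, the authors aligned and counted the reads with Cell Ranger ATAC 1.2.0, and the notes name the builds mm10 and GRCm38. The deposited values are raw counts of insertions per peak and cell barcode, with no normalization stated. The second deposited table was not used, since its peaks carry no positions. Counts were summed per barcode ending and scaled to CPM. Positions are printed in 1-based form, the starts in the table being 0-based. Genes and starts were taken from GENCODE M21, a peak belonged to a locus with an overlap of at least 1 bp, and a start peak lay within 1000 bp of a protein-coding start. Ratios were taken without a pseudocount, with exact conditional binomial 95% intervals, and counted as past the fold at 1.5-fold with at least 20 counts. Each cell was thinned, drawing its counts without replacement, to the 10th percentile of cell depth (69 cells of set 1 and 76 of set 2 left out). No cell was otherwise removed and no doublet caller was run. Set totals were 13050952 and 9820094 counts, with medians of 13358.5 and 12755 per cell. The genes, lists and measures were chosen with earlier results of these data known. Named were all 10 genes, their highest peaks, their peaks past 1.5-fold, and of each pathway list the genes past 1.5-fold and the most and least open gene. Tap1, Tap2, Psmb10, H2-DMb1 and the genes of the marker comparison were named after their values were seen. Some genes of the marker lists are not reported here. The ratio script was tested on simulated data. Python 3.11.15, numpy 2.4.6, pandas 2.3.3 and scipy 1.17.1 were used.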

Additional observations from a re-analysis of the deposited data

How the results depend on the processing

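No paired analysis was possible because the cells of the table carry no sample or replicate label and no test was made. The log2 ratio of class II, -0.19, was -0.13 with each peak counted once per cell and -0.12 in start peaks only, and it stayed below 0 under every alternative run. That of class I, 0.07, ranged from 0.03 to 0.12. The summed CPM of class I in sets 1 and 2 was 325 and 303 with each peak counted once per cell, 260 and 255 in start peaks only, and 244 and 231 without H2-D1, the class I gene with the most counts. The summed CPM of class II was 423 and 461 with each peak counted once per cell, 387 and 421 in start peaks only, 272 and 322 without H2-DMa, and 527 in set 2 without the cells over 3 times the median depth. Of 79 values of the ratios of single genes under other settings, 69 moved by less than the margin of the counting interval and 8 changed sign. Those of Nlrc5 became -0.10 in start peaks only and with all cells weighted alike, and that of B2m became 0.06 with cells weighted alike. That of H2-DMa, -0.12, became -0.03 with cells weighted alike and without cells over 3 times the median depth. Thinned cells gave -0.47 for H2-Eb1, -0.02 for Ciita and 0.19 for H2-D1. The other 2 that moved were H2-Ab1, -0.18 in start peaks only, and Cd74, -0.05 with each peak counted once per cell. Every share of open cells was higher without thinning. The background shares at 1.5-fold kept within 1.5 times their value with no minimum, with at least 50 counts and with a pseudocount of 1 CPM. With no replicate, the spread between libraries of 1 group is unknown, and at this depth peaks under 20 counts carry no ratio. The cause of these differences was not tested.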
